A study of Mus musculus with 10 samples.

Results

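The genes described here are the 46 fatty acid and sebum lipid genes of a named list, taken by symbol from the 49671 gene IDs of a mouse skin RNA-seq table. They cover 10 roles, which run from the synthesis of fatty acids through desaturation, esterification and lipid droplets to the nuclear receptors that respond to lipids. No measured value was used to choose them, but the list was drawn up with earlier results of these data known. The gene Gpat3, which belongs to a further list used below, stands in the table under its older name Agpat9.

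Sebaceous glands are epidermal appendages whose cells fill with lipid and then break open to release it as sebum. Mouse sebum holds triglycerides, wax esters and cholesteryl esters, all built on fatty acids that the gland makes itself or takes up. Lipid synthesis is switched on by the transcription factor SREBP1 and by nuclear receptors of the PPAR family, and other keratinocytes use many of the same enzymes for membranes and the skin barrier.

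The study asked about Survivin, the product of Birc5 and a protein of cell division and cell survival, in the start of basal cell carcinoma. Cells were sorted from skin epidermis of mice by the fluorescence of SmoM2-YFP, an activated form of the Hedgehog pathway protein Smoothened joined to a yellow fluorescent protein, so every group carried that oncogene. The sorted cells were profiled in bulk as 10 libraries in 5 groups of 2. The LOF group carried Krt14-CREER, Rosa-SmoM2 and a Survivin loss of function and was taken at 6 weeks. The GOF group carried Inv-CREER, Rosa-SmoM2, Krt14rtTA and a Survivin gain of function and was taken at 8 weeks. The Krt14 8w group carried Krt14-CREER and Rosa-SmoM2 and was taken at 8 weeks, the Inv group carried Inv-CREER and Rosa-SmoM2 and was taken at 8 weeks, and the Krt14 6w group carried Krt14-CREER and Rosa-SmoM2 and was taken at 6 weeks. The weeks stand beside the word TAM in the labels, which state neither the age of the mice nor how many mice gave a library. The keratin 14 promoter is active in basal keratinocytes and the involucrin promoter in committed, suprabasal ones, so the drivers start the oncogene in different cells. The GOF group carries Krt14rtTA beside the Survivin allele, and the Inv group does not. The names of both Inv libraries include the word pool. Nothing in the labels says that the libraries of a group came from separate animals, so p-values measure the spread between libraries.

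The values are the authors' normalized counts, which sum to about the same total in every library. Each value is a whole number of reads times a step of the library, which puts between 7693179 and 8870759 reads behind a library and places 3 reads, taken here as the floor, at 6.76 to 7.8 normalized counts. Birc5 had 382 and 429 normalized counts in LOF against 961 and 1103 in Krt14 6w, and 7277 and 16384 in GOF against 237 and 265 in Inv. Xist, which is transcribed from the inactive X chromosome of female cells, stood at 30024 and 59594 in LOF, 7589 and 56185 in GOF and 51 to 194 in the other 6 libraries, and the Y-linked Ddx3y stood at 956 to 3328 in all 10. High Xist thus coincided with the Survivin alleles. The allele and the sex of the cells cannot be told apart in comparisons of LOF or GOF with the other groups. The keratinocyte genes Krt5 and Krt14 were among the abundant genes of every library, at 61520 to 149229 and 47388 to 84983. The GOF libraries differed more from each other than other pairs did, with endothelial markers summing to 404 and 1210 in GOF against 357 and 380 in Inv. In bulk samples of this kind, fewer cells of a type and less RNA per cell cannot be told apart.

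The promoter windows of 4 enzymes are shown first, as examples. All 4 genes were called higher in LOF and lower in GOF and in Krt14 8w against Inv in the comparisons that follow. They were picked from 16 genes called higher in LOF and lower in GOF. Fasn builds palmitate, Acacb makes malonyl-CoA, Acoxl is related to the peroxisomal acyl-CoA oxidases, and Soat1 makes cholesteryl esters. Each line gives the bases that precede the RefSeq start site on build GRCm38.p6, 250 in number, read 5′ to 3′ on the gene's strand. The lines lie at chr11:120824548-120824797 on the minus strand for Fasn, chr5:114165268-114165517 on the plus strand for Acacb, chr2:127854378-127854627 on the plus strand for Acoxl and chr1:156474329-156474578 on the minus strand for Soat1. For Acacb and Acoxl that start lies inside the interval that the GENCODE annotation gives for the gene. Capitals mark CCAAT, the letters bound by NF-Y, or ATTGG where CCAAT is on the other strand.
Fasn: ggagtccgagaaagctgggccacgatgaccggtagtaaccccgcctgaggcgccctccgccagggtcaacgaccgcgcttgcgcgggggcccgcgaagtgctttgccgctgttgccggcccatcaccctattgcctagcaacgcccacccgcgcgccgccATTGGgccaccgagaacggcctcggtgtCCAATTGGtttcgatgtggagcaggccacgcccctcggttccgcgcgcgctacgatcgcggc
Acacb: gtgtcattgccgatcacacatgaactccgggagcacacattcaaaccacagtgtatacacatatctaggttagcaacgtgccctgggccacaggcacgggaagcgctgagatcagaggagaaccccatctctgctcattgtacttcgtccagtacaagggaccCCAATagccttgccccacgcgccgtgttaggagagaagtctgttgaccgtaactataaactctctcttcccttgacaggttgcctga
Acoxl: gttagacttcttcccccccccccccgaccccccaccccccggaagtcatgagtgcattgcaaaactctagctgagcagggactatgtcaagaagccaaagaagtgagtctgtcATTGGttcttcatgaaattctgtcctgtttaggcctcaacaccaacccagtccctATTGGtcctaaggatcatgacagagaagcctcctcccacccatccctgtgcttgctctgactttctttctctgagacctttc
Soat1: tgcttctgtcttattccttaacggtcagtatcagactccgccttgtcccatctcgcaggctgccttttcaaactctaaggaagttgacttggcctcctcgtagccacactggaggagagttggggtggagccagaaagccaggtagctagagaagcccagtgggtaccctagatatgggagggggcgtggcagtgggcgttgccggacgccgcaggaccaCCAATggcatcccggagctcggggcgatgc
Fasn held 3 such matches, with CCAAT and ATTGG overlapping at 1 place, Acoxl held 2, and Acacb and Soat1 held 1 each. RefSeq windows, which add 50 bases after the start, were on hand for 36 of the 46 genes, 48 windows in all. CCAAT occurred on either strand in 29 of the 48 windows, 60.4%, against 37.4% of all 32851 mouse windows and 38.2% of the windows of protein-coding genes. GGGCGG, the GC box, occurred in 60.4% of the windows of lipid genes, 35.7% of all windows and 46.2% of those of protein-coding genes. The sterol response form TCACNCCAC occurred in 1 window, that of Acsl1, which is 2.08% against 1.24% of all windows, and TCACNCGAC occurred in none of the 48 against 0.31%. The E-box CACGTG occurred in 4.17% of the windows of lipid genes and 7.15% of all windows. CCAAT was present for 13 of the 18 genes with a window that were lower in GOF than in Inv, and for 13 of the 18 others with a window. Agpat2, Far2, Hsd3b6, Mgst1 and Scd3 were lower in GOF and had a window without it. The 4 windows printed above, which all hold CCAAT, therefore do not stand for all genes of that pattern. These matches are letters in a window and were not tied to binding or to a change.

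Across the 5 groups the lipid genes were most abundant in Inv and least abundant in Krt14 6w. The 46 genes together made up 0.415% and 0.508% of the values in the LOF libraries, 0.519% and 0.58% in GOF, 0.475% and 0.442% in Krt14 8w, 1.38% and 1.4% in Inv and 0.299% in each Krt14 6w library. Of the 44 genes that passed the filter on low values (at least 10 normalized counts in at least 2 libraries), 30 had their highest group mean in Inv and 33 their lowest in Krt14 6w. The 2 that did not pass were Thrsp, a regulator of lipogenesis, with 3 to 12 normalized counts in every library, and Fabp4, a fatty acid binding protein of adipocytes and endothelium, with 0 and 0 in LOF, 8 and 21 in GOF, 0 and 3 in Krt14 8w, 5 and 5 in Inv and 0 and 3 in Krt14 6w. Genes were tested with limma on log2 of the normalized count plus 1, in 1 model over all 10 libraries, and called at a Benjamini-Hochberg adjusted p under 0.05 over the 21995 genes tested. Of the 44 genes, 5 were called in all 5 comparisons between groups, namely Scd1, Soat1, Gpam, Acoxl and Mgst1. Another 6 were called in none, namely Acsl3, Cpt1a, Plin3, Plin4, Plin5 and Soat2. The shares of all genes called in all 5 comparisons or in none were not counted.

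**Figure D1:**
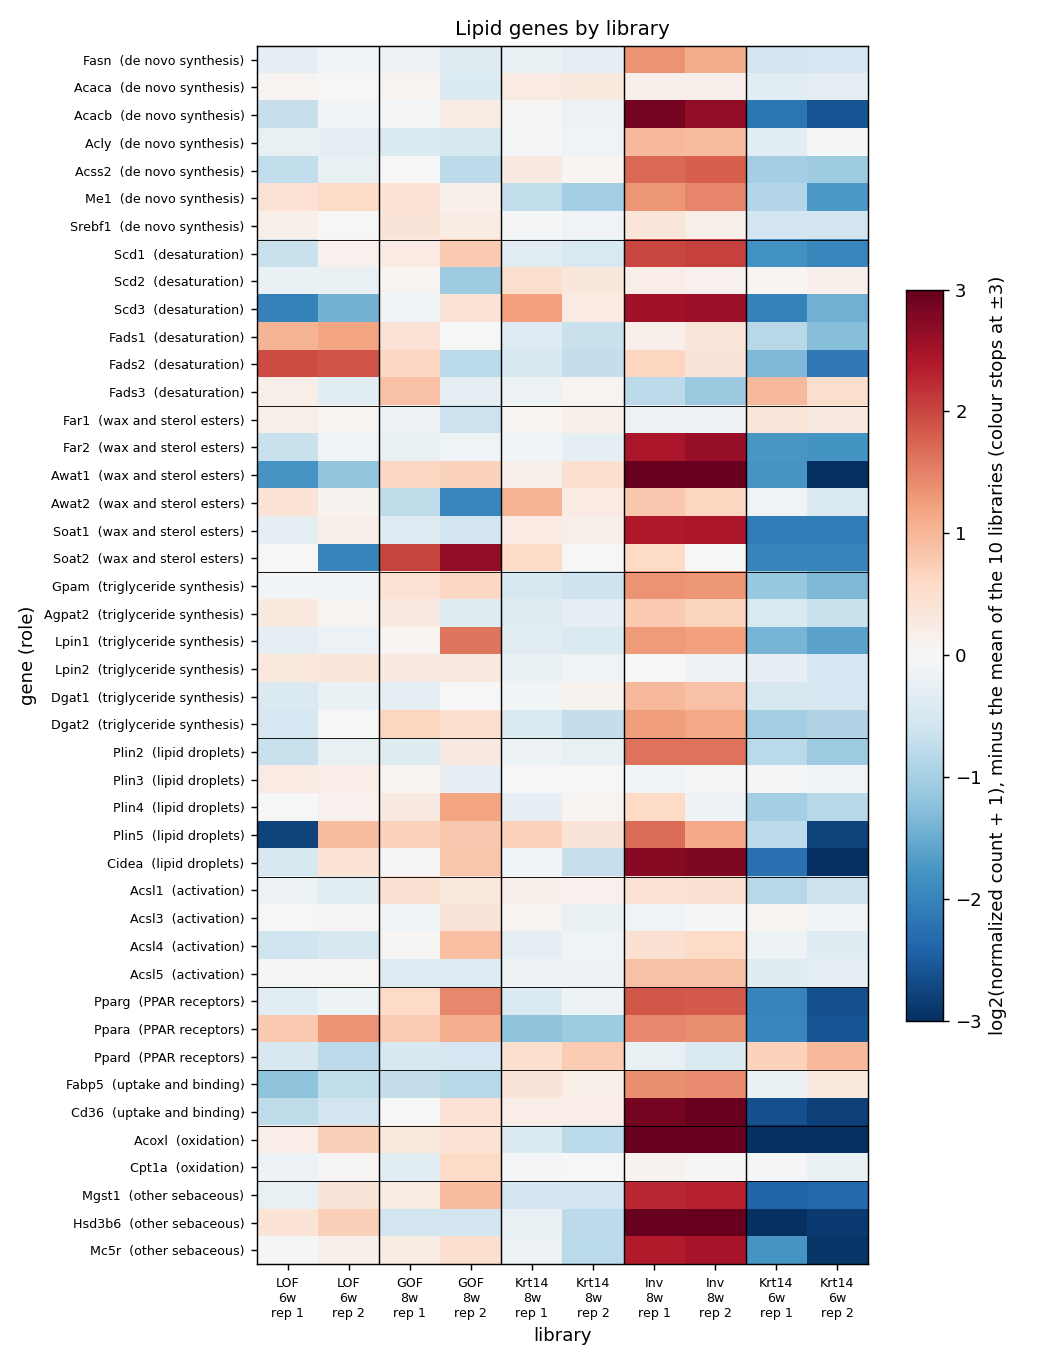
Colour shows log2 of the normalized count plus 1, minus the mean of the gene over the 10 libraries, for the 44 tested genes (rows, grouped by role) in the 10 libraries (columns, 2 per group). The Inv columns are red for most genes and the Krt14 6w columns blue, with 30 genes highest in Inv and 33 lowest in Krt14 6w, while Ppard and Fads3 are highest in Krt14 6w.

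With the loss of Survivin, lipid genes were mostly higher, by a median of 0.73 on the log2 scale against 0.16 over all genes tested. In LOF against Krt14 6w, 24 of the 44 genes were called higher, beside 19.5% of all genes tested, and 2 were called lower, beside 11.4%. The genes that fell were Ppard, a nuclear receptor, and Fabp5, an epidermal fatty acid binding protein. Without GOF replicate 1 or GOF replicate 2, which enter through the shared estimate of spread, 5 genes were called lower. In a model with log2 Xist as a covariate 6 lipid genes were called higher. Over all genes tested that model called 591 higher, against 4294 without the covariate. Fads1, Fads2, Soat1 and Acoxl kept their calls under it. The log2 changes of Scd1, Lpin1 and Pparg turned to -0.17, -2.39 and -0.64, none of them called. Rescaling by the median of ratios lowered the median over all genes to 0.02, with 3347 genes higher and 3482 lower against 4294 and 2511 as deposited, and left 21 lipid genes higher and 3 lower.

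The gain of Survivin in the Inv-driven cells went with lower values of many lipid genes. In GOF against Inv, 24 of the 44 genes were called lower, beside 8.4% of all genes tested, and 1 was called higher, beside 6.87%. The median was -0.82 on the log2 scale against -0.01 over all genes. The gene that rose was Fads3, at 275 and 123 normalized counts in GOF against 85 and 68 in Inv, with a log2 change of 1.26 ± 0.35 (adjusted p = 0.0347). That call ended without GOF replicate 1 (0.69), Inv replicate 1 (1.42), Inv replicate 2 (1.11) or either Krt14 8w library (1.26), so that limma called 0 genes higher without either Inv or either Krt14 8w library, and 3 without GOF replicate 1. With log2 Xist as a covariate 6 lipid genes were called lower, and Acacb, Far2, Soat1, Plin2, Cd36 and Mgst1 kept their calls. Over all genes tested that model called 26 lower and 14 higher, against 1848 and 1511 without the covariate.

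Both changes of Survivin share no library, so their difference could be tested. It was called for 34 genes, with 32 more positive in the loss than in the gain, beside 15.3% of all genes, and 2 more negative, Fads3 and Ppard, beside 8.34%. The median difference was 1.77 on the log2 scale against 0.17 over all genes. Rescaling by the median of ratios gave 2777 genes more positive and 2508 more negative over all genes, against 3375 and 1834 as deposited, and 32 lipid genes with a called difference. The call of Fads3 ended without LOF replicate 2 or Inv replicate 2. Of the genes with a called difference, 16 were called higher in LOF and lower in GOF. The share of all genes with both of these calls was not counted. The loss was made with the Krt14 driver at 6 weeks and the gain with the Inv driver at 8 weeks, so allele, driver and time cannot be told apart in this difference. On each side of it, Xist was also high with the Survivin allele and low without.

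**Figure D2:**
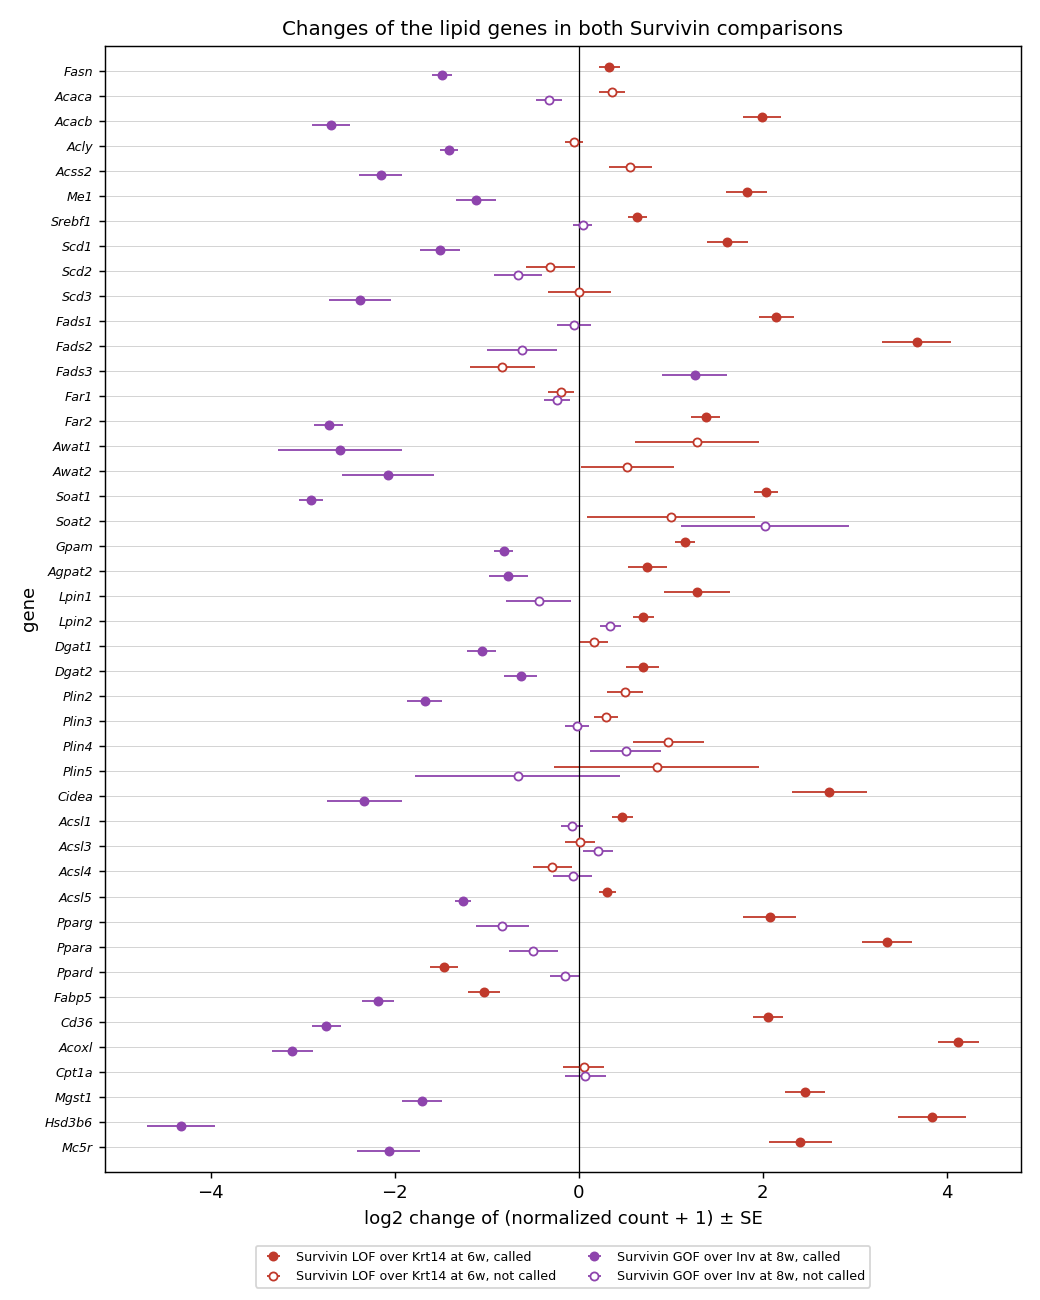
Points show the log2 change of the normalized count plus 1 for the 44 tested genes, with bars for the standard error, in Survivin LOF over Krt14 at 6 weeks (red) and in Survivin GOF over Inv at 8 weeks (purple). Filled points are genes called at an adjusted p under 0.05: 24 higher and 2 lower in LOF, 1 higher and 24 lower in GOF.

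Lipid genes also differed by driver and by time among the groups that carry no Survivin allele. In Krt14 8w against Inv, 29 of the 44 genes were called lower, beside 11.4% of all genes tested, and 1, Ppard, was called higher, beside 8.18%, with a median of -1.12 against -0.1 over all genes. Both directions together made 30 of 44 genes, beside 19.6% of all genes tested. The count of genes higher was 4 without GOF replicate 1 or GOF replicate 2. The GOF and Krt14 8w groups were each set against the same Inv libraries, and 23 genes were called lower in both. Those calls are not independent, since the Inv libraries enter both, and the share of all genes lower in both was not counted. Between times, in Krt14 8w against Krt14 6w, 20 genes were called higher, beside 4.02% of all genes tested, and 0 lower, beside 0.855%, with a median of 0.8 against 0.14. Calls in either direction made up 4.88% of all genes tested. Beside the 0 genes called lower by limma, 1 had an unadjusted p under 0.05, limma-voom on recovered reads called 0 and a fit to only these groups called 1. The count of 20 was smaller without either Krt14 8w library or without Krt14 6w replicate 2. The count over all genes tested was smaller in the same fits. Rescaling by the median of ratios gave 595 genes higher and 514 lower over all genes, against 885 and 188 as deposited, and 16 lipid genes higher.

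Set against Krt14 8w, the GOF group showed lipid genes on both sides. In GOF against Krt14 8w, 13 genes were called higher, beside 15.2% of all genes tested, and 8 lower, beside 12.5%, with a median of 0.23 against 0.09. Calls in either direction made up 27.7% of all genes tested. Of the 24 genes lower in GOF than in Inv, 6 were higher in GOF than in Krt14 8w, 4 were lower and 14 were not called. Both comparisons use the GOF libraries, and this split was not counted over all genes. The counts of lipid genes higher and lower shrank without either Krt14 8w library, and the count lower also without GOF replicate 2. The counts over all genes tested shrank in the same fits. With log2 Xist as a covariate 0 lipid genes were called higher by limma and 1 lower. Over all genes tested that model called 87 higher and 115 lower, against 3352 and 2746 without the covariate. The log2 changes of Acaca, Scd1, Scd2, Far1, Awat2, Lpin1, Acsl4, Pparg and Mgst1 turned sign under it, none of them called.

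**Figure D3:**
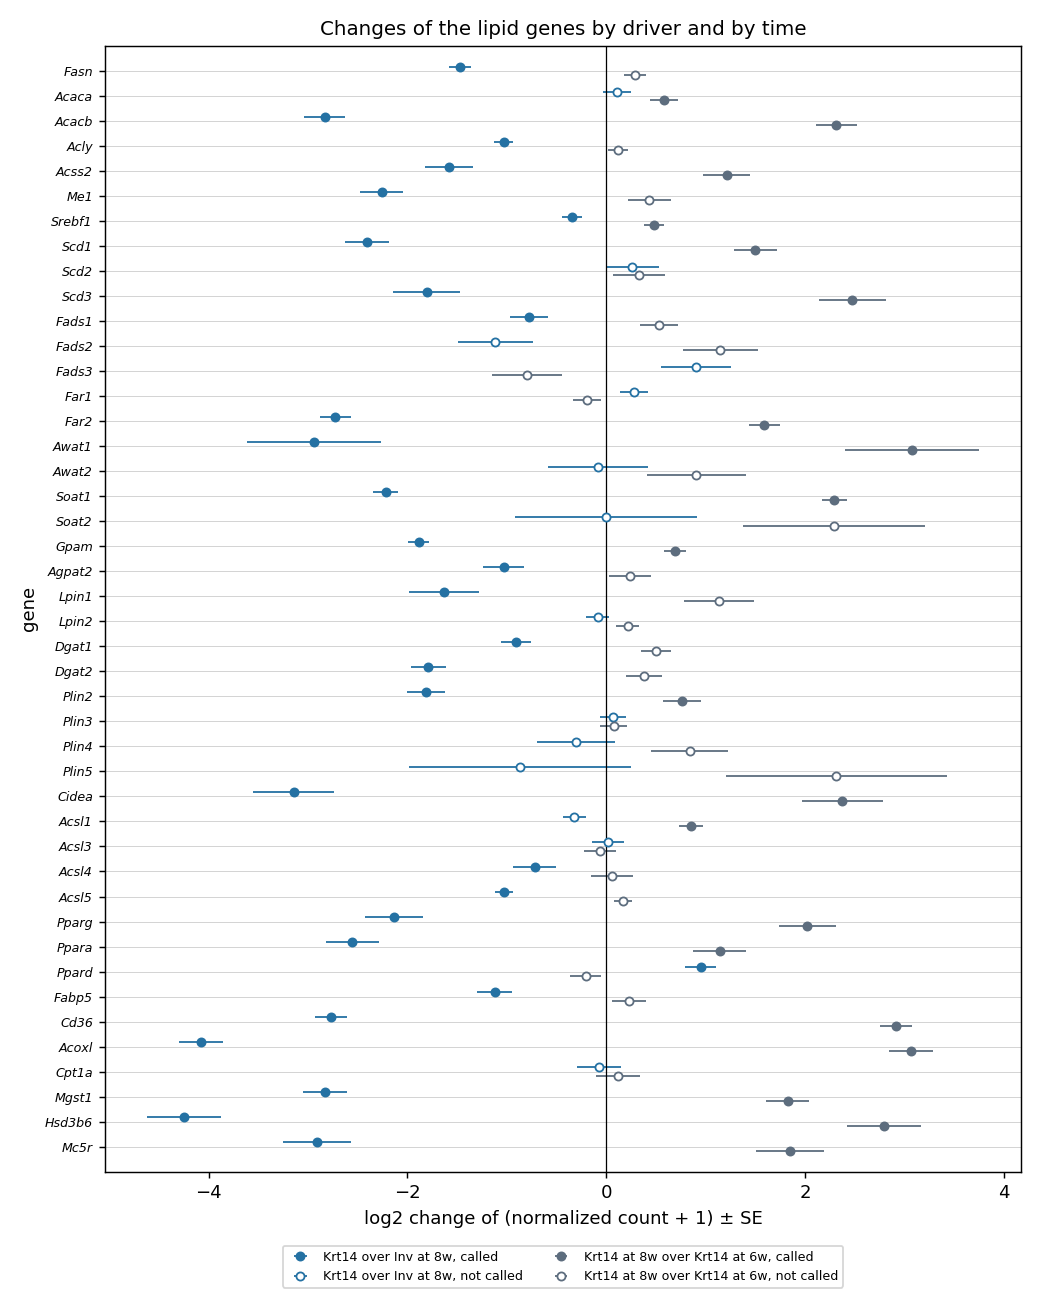
Points show the log2 change of the normalized count plus 1 for the 44 tested genes, with bars for the standard error, in Krt14 over Inv at 8 weeks (blue) and in Krt14 at 8 weeks over Krt14 at 6 weeks (grey). Filled points are called genes: 29 lower and 1 higher by driver, 20 higher and 0 lower by time.

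Fatty acid synthesis starts with the supply of acetyl-CoA and malonyl-CoA, and Fasn joins them into palmitate. Fasn (chr11:120805846-120824547, minus strand) had 7926 and 9154 normalized counts in LOF, 8827 and 7555 in GOF, 8518 and 7995 in Krt14 8w, 24693 and 21178 in Inv and 6640 and 6875 in Krt14 6w. The 8 libraries outside Inv lay between 6640 and 9154, and both Inv libraries stood far above them. The log2 change was -1.49 ± 0.11 (SE, adjusted p = 2.3e-05) in GOF against Inv and 0.33 ± 0.11 (adjusted p = 0.0428) in LOF against Krt14 6w, and the call in LOF ended when any 1 of LOF replicate 2, Krt14 6w replicate 1, Krt14 6w replicate 2, Krt14 8w replicate 1 or Krt14 8w replicate 2 was left out, at changes of 0.23 to 0.36. Acacb, the acetyl-CoA carboxylase whose malonyl-CoA holds back fatty acid entry into mitochondria, had 506 and 772 normalized counts in LOF, 782 and 947 in GOF, 843 and 722 in Krt14 8w, 5948 and 5207 in Inv and 180 and 135 in Krt14 6w. Both Inv libraries stood above all others, and both Krt14 6w libraries below all others. Its log2 change was 2.00 ± 0.21 in LOF (adjusted p = 6.29e-05), -2.69 ± 0.21 in GOF (adjusted p = 2.58e-05) and 2.32 ± 0.21 between times (adjusted p = 0.000352). Acaca, the carboxylase that feeds fatty acid synthesis, lay between 2343 and 3846 in all 10 libraries and was not called in LOF or against Inv. It was called higher in Krt14 8w than in Krt14 6w and lower in GOF than in Krt14 8w. Of its transcript sequence, 30.4% of stretches of 50 bases also occur in transcripts of other genes.

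Acly, which splits citrate into acetyl-CoA, had 4101 and 3955 normalized counts in LOF, 3559 and 3417 in GOF, 4653 and 4399 in Krt14 8w, 9377 and 9134 in Inv and 3810 and 4556 in Krt14 6w. Acss2, which makes acetyl-CoA from acetate, had 325 and 467 normalized counts in LOF, 537 and 315 in GOF, 660 and 567 in Krt14 8w, 1775 and 1893 in Inv and 268 and 259 in Krt14 6w. Both were highest in Inv, with log2 changes in GOF of -1.41 ± 0.10 for Acly and -2.15 ± 0.24 for Acss2, while neither was called in LOF, at -0.05 and 0.56. Me1, a malic enzyme that supplies NADPH, had 4649 and 5227 normalized counts in LOF, 4538 and 3812 in GOF, 2071 and 1706 in Krt14 8w, 8598 and 9430 in Inv and 1861 and 1039 in Krt14 6w. Of its transcript sequence, 22.9% of stretches of 50 bases also occur in transcripts of Gm7049 or Gm7329. The values of Me1 in LOF, GOF and Inv all lay above those of both Krt14 groups. It rose by a log2 change of 1.83 ± 0.22 in LOF (adjusted p = 0.00015) and of 1.15 ± 0.22 in GOF against Krt14 8w (adjusted p = 0.00303), and fell by 1.11 in GOF against Inv, a call that ended without Inv replicate 1 (-1.18) or Inv replicate 2 (-1.05). Srebf1, which encodes the transcription factor SREBP1, stood at 2465 to 4769 in the 10 libraries and was called in 4 of the 5 comparisons. It rose in LOF by 0.64 ± 0.10 (adjusted p = 0.000918), and in GOF against Inv it was not called, at 0.04 ± 0.10. Its smaller changes were -0.34 ± 0.10 in Krt14 8w against Inv (adjusted p = 0.0364), 0.48 ± 0.10 between times (adjusted p = 0.027) and 0.38 ± 0.10 in GOF against Krt14 8w (adjusted p = 0.0162). Each of these 3 calls ended without either Krt14 8w library, the first also without any 1 library of Inv or Krt14 6w and the second without either Krt14 6w library.

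The wider supply of carbon and reducing power followed Inv in part. Of 12 further genes for precursors and NADPH, 1 rose and 2 fell in LOF against Krt14 6w, beside 19.5% and 11.4% of all genes tested, with a median log2 change of -0.13 against 0.16 over all genes. In GOF against Inv 10 of them fell, beside 8.4% of all genes, with a median of -0.7 against -0.01. For this list and those of elongation, carriers, oxidation, glycerolipids and lipolysis, limma called 0 genes higher in GOF against Inv, 0 had a higher value at an unadjusted p under 0.05, and limma-voom called 0. Slc25a1, the mitochondrial citrate carrier, had 1125 and 1128 normalized counts in LOF, 837 and 778 in GOF, 1194 and 1082 in Krt14 8w, 3513 and 2913 in Inv and 865 and 855 in Krt14 6w. Aacs, which activates acetoacetate for lipid synthesis, had 858 and 920 normalized counts in LOF, 731 and 479 in GOF, 1222 and 1168 in Krt14 8w, 3513 and 2866 in Inv and 789 and 824 in Krt14 6w. Both stood at 2866 to 3513 in Inv and at no more than 1222 elsewhere. Of 6 genes of the fatty acid elongation cycle, 4 fell in GOF against Inv, among them Hsd17b12 by 1.26 and Hacd2 by 1.66 on the log2 scale, beside 8.4% of all genes, and 1 rose in LOF, beside 19.5%.

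Desaturases put double bonds into fatty acids, and Scd1 is the stearoyl-CoA desaturase of the mature sebaceous gland. Scd1 (chr19:44394455-44407879, minus strand) had 18065 and 30936 normalized counts in LOF, 33817 and 49052 in GOF, 22984 and 20745 in Krt14 8w, 113521 and 118185 in Inv and 8140 and 7301 in Krt14 6w. It held 21.8% and 30.5% of the summed normalized counts of the 46 genes in LOF, 32.5% and 42.3% in GOF, 24.2% and 23.5% in Krt14 8w, 41.1% and 42.2% in Inv and 13.6% and 12.2% in Krt14 6w. Its log2 change was 1.62 ± 0.22 in LOF against Krt14 6w (adjusted p = 0.000345), -1.51 ± 0.22 in GOF against Inv (adjusted p = 0.00152) and 1.5 ± 0.22 between times (adjusted p = 0.00567), and the call between times ended without Krt14 8w replicate 1, Krt14 8w replicate 2 or Krt14 6w replicate 2. Scd2, a paralog used more widely in skin, had 8130 and 8007 normalized counts in LOF, 9902 and 4415 in GOF, 13328 and 11810 in Krt14 8w, 10680 and 10227 in Inv and 9633 and 10343 in Krt14 6w. Scd2 was called in 1 comparison, GOF against Krt14 8w, at -0.92 ± 0.26 (adjusted p = 0.0236), a call that ended without either Krt14 8w library, and its GOF libraries differed from each other more than the other pairs did. Per kilobase of exon, Scd1 averaged 5010 normalized counts in LOF, 8470 in GOF, 4470 in Krt14 8w, 23700 in Inv and 1580 in Krt14 6w, and Scd2 averaged 1480 in LOF, 1310 in GOF, 2300 in Krt14 8w, 1910 in Inv and 1830 in Krt14 6w. The level per kilobase of Scd1 over that of Scd2 was 2.48 and 4.32 in LOF, 3.81 and 12.4 in GOF, 1.93 and 1.96 in Krt14 8w, 11.9 and 12.9 in Inv and 0.944 and 0.788 in Krt14 6w. Scd2 exceeded Scd1 per kilobase in both Krt14 6w libraries and in none of the other 8. Stretches of 50 bases shared with other genes made up 4.56% of Scd1 and 3.97% of Scd2 transcript sequence.

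Scd3, a further paralog known from sebaceous glands of mice, had 53 and 82 normalized counts in LOF, 210 and 294 in GOF, 519 and 263 in Krt14 8w, 1268 and 1326 in Inv and 53 and 81 in Krt14 6w. It fell in GOF against Inv by 2.38 on the log2 scale (adjusted p = 0.00135) and rose between times by 2.48 ± 0.34 (adjusted p = 0.00447), and was not called in LOF, at 0.01 ± 0.34. Fads1 and Fads2, which make long polyunsaturated fatty acids, followed another order. Fads2 had 2287 and 2190 normalized counts in LOF, 900 and 333 in GOF, 422 and 355 in Krt14 8w, 915 and 770 in Inv and 230 and 132 in Krt14 6w. Fads1 had 2079 and 2354 normalized counts in LOF, 1388 and 1025 in GOF, 794 and 653 in Krt14 8w, 1147 and 1328 in Inv and 581 and 427 in Krt14 6w. For both genes each LOF library stood above all 8 others. The log2 change in LOF against Krt14 6w was 3.68 ± 0.38 for Fads2 (adjusted p = 5.61e-05) and 2.15 ± 0.19 for Fads1 (adjusted p = 2.2e-05), and in GOF against Inv neither was called, at -0.62 and -0.05. Fads3, a related desaturase, ran against the rest, with 167 and 118 normalized counts in LOF, 275 and 123 in GOF, 132 and 156 in Krt14 8w, 85 and 68 in Inv and 292 and 215 in Krt14 6w. Both Inv libraries were the lowest, and GOF replicate 1 lay among the Krt14 6w libraries, the highest group.

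Wax esters need fatty alcohols, which Far1 and Far2 make, and the wax synthases Awat1 and Awat2, while Soat1 and Soat2 make cholesteryl esters. Far2 had 1831 and 2681 normalized counts in LOF, 2518 and 2650 in GOF, 2751 and 2395 in Krt14 8w, 16075 and 17935 in Inv and 865 and 837 in Krt14 6w. Soat1 (chr1:156424525-156474331, minus strand) had 2178 and 2891 normalized counts in LOF, 2008 and 1745 in GOF, 3075 and 2948 in Krt14 8w, 13750 and 14320 in Inv and 614 and 610 in Krt14 6w. For both genes the Inv libraries stood above all others and the Krt14 6w libraries below all others, with LOF, GOF and Krt14 8w between. In LOF against Krt14 6w the log2 change was 1.38 ± 0.16 for Far2 (adjusted p = 0.000102) and 2.03 ± 0.13 for Soat1 (adjusted p = 3.6e-06). In GOF against Inv it was -2.72 ± 0.16 for Far2 (adjusted p = 4.46e-06) and -2.91 ± 0.13 for Soat1 (adjusted p = 2.12e-06). Far1, the more general reductase, ran from 1667 to 3370. It was called in 1 comparison, lower in GOF, at 2374 and 1667, than in Krt14 8w, at 2777 and 2933. The level per kilobase of Far2 over that of Far1 was 7.57 and 8.4 in Inv and 0.283 and 0.292 in Krt14 6w.

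The wax synthases were low. Awat1 had 3 and 5 normalized counts in LOF, 20 and 21 in GOF, 14 and 18 in Krt14 8w, 132 and 125 in Inv and 3 and 0 in Krt14 6w. All LOF and Krt14 6w libraries were at or under the floor for Awat1, so no fold is given between them, and its fall in GOF against Inv (adjusted p = 0.0261) ended without GOF replicate 2, Inv replicate 1 or Inv replicate 2. Awat2 had 15 and 6 normalized counts in GOF against 46 and 41 in Inv, with 6 to 54 over all libraries. Soat2 lay at 0 to 5 in 8 libraries and at 15 and 24 in GOF. It was not called by limma at a pseudocount of 1, but a pseudocount of 5 called it higher in GOF than in Inv (adjusted p = 0.0429) and than in Krt14 8w (adjusted p = 0.0279), and limma-voom called it in GOF against Krt14 8w (adjusted p = 0.0445).

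**Figure D4:**
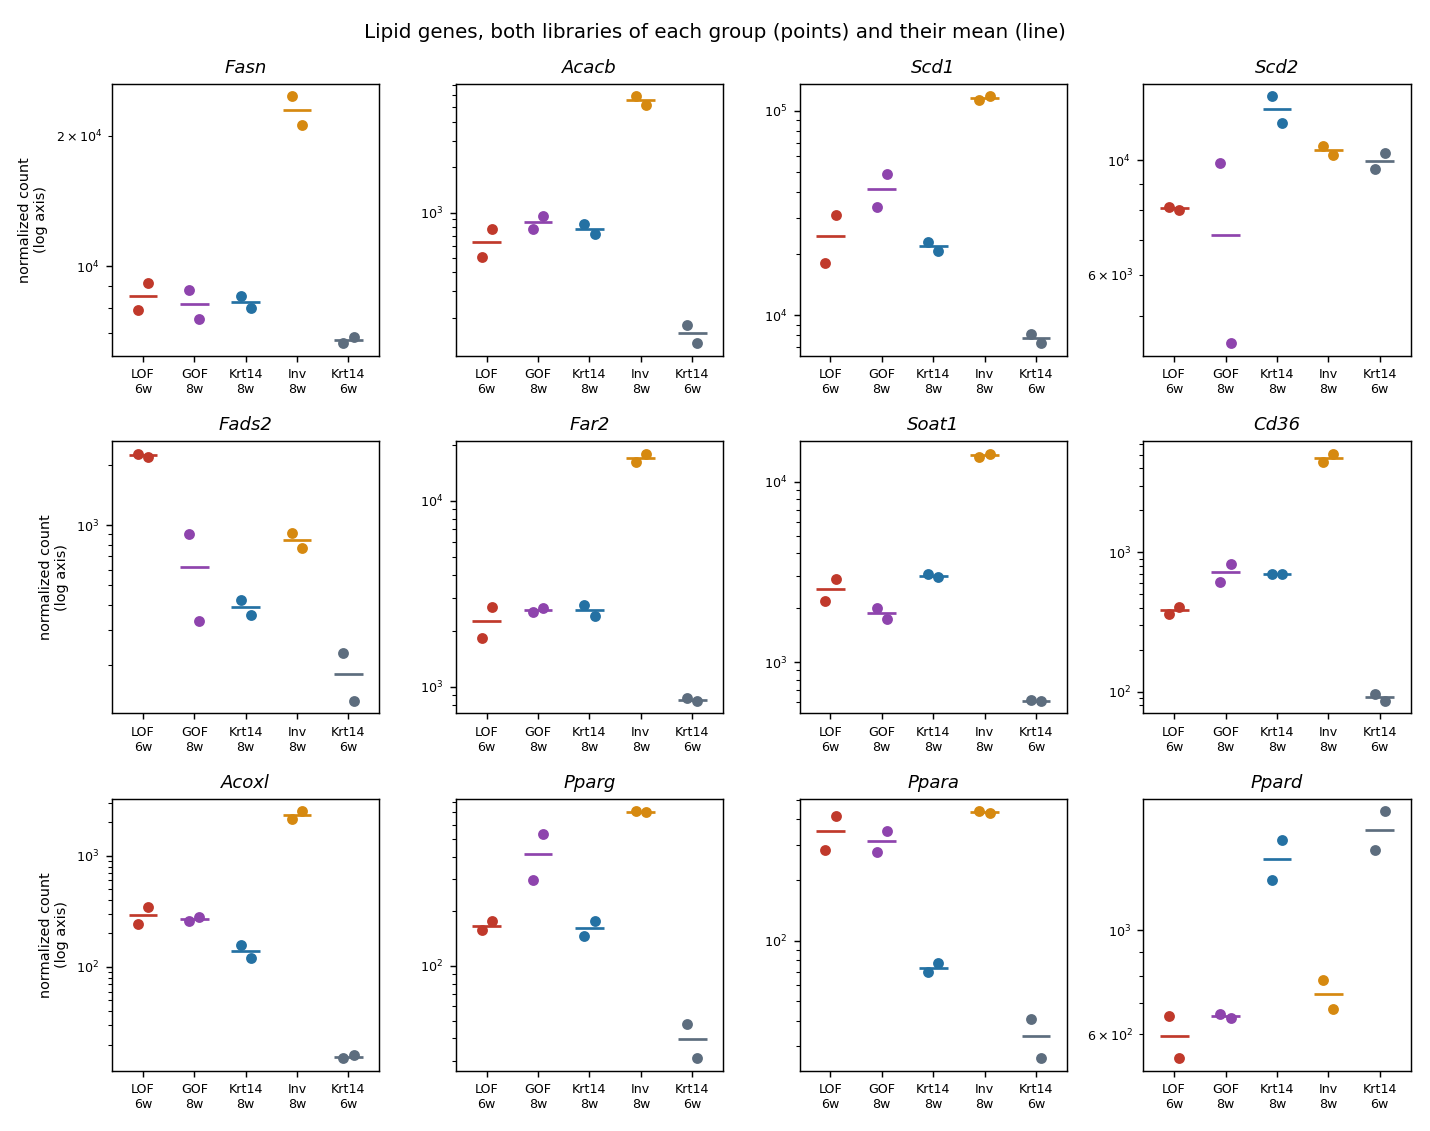
Normalized counts on a log axis for 12 lipid genes, with both libraries of each group as points and their mean as a line, from left to right LOF 6w, GOF 8w, Krt14 8w, Inv 8w and Krt14 6w. Scd1, Far2, Soat1, Cd36 and Acoxl are highest in Inv and lowest in Krt14 6w, Fads2 is highest in LOF, and Ppard is highest in Krt14 6w.

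Triglycerides are assembled from glycerol phosphate by Gpam, Agpat2, the lipins and the Dgat enzymes. Gpam, which carries out the first step, had 1831 and 1842 normalized counts in LOF, 2643 and 2972 in GOF, 1398 and 1273 in Krt14 8w, 4956 and 4914 in Inv and 884 and 770 in Krt14 6w. Its replicates lay close together and its groups did not overlap in any of the 5 comparisons. It rose by 1.15 ± 0.11 in LOF (adjusted p = 3.31e-05), fell by 0.82 in GOF against Inv (adjusted p = 0.000846) and was higher in GOF than in Krt14 8w by 1.07 ± 0.11 (adjusted p = 6.56e-05). Dgat2, a final-step enzyme, had 347 and 492 normalized counts in LOF, 777 and 708 in GOF, 366 and 301 in Krt14 8w, 1186 and 1114 in Inv and 244 and 266 in Krt14 6w. Dgat1, which does the same reaction, had 355 and 418 normalized counts in LOF, 397 and 489 in GOF, 456 and 521 in Krt14 8w, 945 and 888 in Inv and 347 and 341 in Krt14 6w. Dgat2 was higher in GOF than in Krt14 8w by 1.16 ± 0.18 (adjusted p = 0.000872), while Dgat1 was not called there, at -0.15 ± 0.15. The fall of Dgat2 in GOF against Inv (-0.63 ± 0.18, adjusted p = 0.0366) ended without any 1 of GOF replicate 2 and the Krt14 8w, Inv and Krt14 6w libraries, where it ran from -0.68 to -0.56.

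Agpat2, the acyltransferase of the second step, had 367 and 318 normalized counts in LOF, 361 and 232 in GOF, 232 and 248 in Krt14 8w, 512 and 472 in Inv and 218 and 189 in Krt14 6w. It rose by 0.75 ± 0.21 in LOF (adjusted p = 0.0203) and fell by 0.76 in GOF against Inv (adjusted p = 0.0331), with limits from single libraries. The call in LOF ended without LOF replicate 1, LOF replicate 2 or Krt14 6w replicate 2 (0.65 to 0.85), and that in GOF without GOF replicate 2 (-0.44) or any 1 library of Inv or Krt14 8w (-0.82 to -0.70). Lpin1, a phosphatidate phosphatase, had 516 and 551 normalized counts in LOF, 645 and 1885 in GOF, 500 and 462 in Krt14 8w, 1509 and 1468 in Inv and 235 and 202 in Krt14 6w. Its GOF libraries stood far apart, the higher of them above both Inv libraries. Its rise in LOF (1.29 ± 0.35, adjusted p = 0.0184) ended without any 1 library of LOF or Krt14 6w, at adjusted p-values of 0.0508 to 0.106. Its rise in GOF over Krt14 8w (1.20 ± 0.35, adjusted p = 0.0278) was 0.42 without GOF replicate 2, and the call ended then and without any 1 library of Krt14 8w or Inv. In GOF against Inv Lpin1 was not called (-0.43 ± 0.35), but it was called at -1.21 without GOF replicate 2 and stood at 0.34 without GOF replicate 1. Lpin2 stayed at 959 to 1728 and rose in LOF by 0.71 ± 0.11 (adjusted p = 0.000977).

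Lipid droplets are coated by perilipins and enlarged by Cidea. Plin2, the perilipin of most lipid-filled cells, had 1324 and 1791 normalized counts in LOF, 1636 and 2512 in GOF, 1900 and 1791 in Krt14 8w, 6451 and 6492 in Inv and 1188 and 990 in Krt14 6w. It fell in GOF against Inv by 1.67 (adjusted p = 0.000354) and in Krt14 8w against Inv by 1.81 (adjusted p = 9.46e-05), and was not called in LOF, at 0.51 ± 0.19. Cidea had 117 and 219 normalized counts in LOF, 169 and 292 in GOF, 155 and 102 in Krt14 8w, 1090 and 1152 in Inv and 34 and 16 in Krt14 6w. Both Inv libraries stood at 1090 or more and no other library above 292. Its log2 change was 2.72 ± 0.41 in LOF (adjusted p = 0.000613) and -2.33 ± 0.41 in GOF (adjusted p = 0.00403, and 0.0531 without Inv replicate 2). Plin3 stayed at 637 to 907, Plin4 at 27 to 128 and Plin5 at 0 to 21.

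The acyl-CoA synthetases, which activate fatty acids, moved less. Acsl5 had 2059 and 2187 normalized counts in LOF, 1645 and 1636 in GOF, 1939 and 1898 in Krt14 8w, 3925 and 3909 in Inv and 1675 and 1738 in Krt14 6w. It fell by 1.26 in GOF against Inv (adjusted p = 1.56e-05), and its rise in LOF of 0.31 ± 0.09 ended without LOF replicate 2, Krt14 6w replicate 1 or Krt14 6w replicate 2. Acsl1 ran from 633 to 1552 and rose in LOF by 0.48 ± 0.12 (adjusted p = 0.0108), a call that ended without LOF replicate 1 or Krt14 6w replicate 1. Acsl3 stayed at 1263 to 1919, and Acsl4 ran from 1517 to 4282 with its highest value in GOF replicate 2.

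The PPAR receptors are lipid-responsive transcription factors, and Pparg is the one that sebocytes need to mature. Pparg had 157 and 176 normalized counts in LOF, 296 and 536 in GOF, 146 and 176 in Krt14 8w, 713 and 703 in Inv and 48 and 31 in Krt14 6w. Ppara had 283 and 415 normalized counts in LOF, 275 and 349 in GOF, 70 and 77 in Krt14 8w, 440 and 432 in Inv and 41 and 26 in Krt14 6w. Ppard had 657 and 533 normalized counts in LOF, 662 and 650 in GOF, 1280 and 1559 in Krt14 8w, 783 and 680 in Inv and 1481 and 1793 in Krt14 6w. Pparg and Ppara were highest in Inv and lowest in Krt14 6w, while Ppard was high in both Krt14 groups and low in the other 3. In LOF against Krt14 6w the log2 change was 2.08 ± 0.29 for Pparg (adjusted p = 0.000401), 3.35 ± 0.27 for Ppara (adjusted p = 1.36e-05) and -1.46 ± 0.15 for Ppard (adjusted p = 6.84e-05). In GOF against Inv none of the 3 was called, at -0.83, -0.49 and -0.15, although against Krt14 8w the GOF group was higher in Pparg by 1.31 ± 0.29 (adjusted p = 0.0069), higher in Ppara by 2.06 ± 0.27 (adjusted p = 0.000317) and lower in Ppard by 1.11. The call of Pparg in GOF against Krt14 8w ended without Krt14 8w replicate 1, at 1.17. With log2 Xist as a covariate the change of Pparg was -1.08 in GOF against Krt14 8w and -0.64 in LOF, neither called. The level per kilobase of Pparg over that of Ppard was 0.608 and 0.84 in LOF, 1.14 and 2.1 in GOF, 0.29 and 0.287 in Krt14 8w, 2.32 and 2.63 in Inv and 0.0825 and 0.044 in Krt14 6w.

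Fatty acids enter cells through carriers such as Cd36 and travel on binding proteins such as Fabp5. Cd36 had 360 and 406 normalized counts in LOF, 611 and 822 in GOF, 697 and 692 in Krt14 8w, 4426 and 5090 in Inv and 96 and 86 in Krt14 6w. Its log2 change was 2.06 ± 0.16 in LOF (adjusted p = 1.17e-05), -2.74 ± 0.16 in GOF against Inv (adjusted p = 5.51e-06) and 2.92 ± 0.16 between times (adjusted p = 1.63e-05). Endothelial cells use Cd36 too, and 3 of their 5 markers, Kdr, Cdh5 and Emcn, stood at 0 to 8 in LOF and Krt14 6w. With Pecam1 and Egfl7 added, the 5 markers summed to 161 and 157 in LOF and 252 and 241 in Krt14 6w. In GOF Kdr had 41 and 294, Cdh5 15 and 221 and Emcn 49 and 242, against 5 to 37 for the 3 genes in Inv. The part of endothelial cells in the values of Cd36 was not tested. Fabp5 had 1564 and 2140 normalized counts in LOF, 2184 and 2026 in GOF, 4694 and 4088 in Krt14 8w, 9468 and 9610 in Inv and 3148 and 4440 in Krt14 6w. It was lower in LOF than in Krt14 6w by 1.03 and lower in GOF than in Inv by 2.18. The difference between those changes was 1.15 ± 0.24 (adjusted p = 0.00633), and 5.48% of its stretches of 50 bases also occur in other genes, mostly Fabp5-like ones.

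Of 9 tested further genes for uptake and carriers, 4 rose and 1 fell in LOF, beside 19.5% and 11.4% of all genes tested, and 3 fell in GOF against Inv, beside 8.4%. Lpl, which frees fatty acids from lipoproteins, had 337 and 672 normalized counts in LOF, 481 and 676 in GOF, 810 and 663 in Krt14 8w, 3320 and 3387 in Inv and 113 and 122 in Krt14 6w. Slc27a4, a fatty acid transport protein, had 1029 and 1304 normalized counts in LOF, 1537 and 1352 in GOF, 1308 and 1217 in Krt14 8w, 8783 and 7486 in Inv and 715 and 804 in Krt14 6w. Both were highest in Inv and lowest in Krt14 6w, as Cd36 was. Vldlr, a lipoprotein receptor, was highest in LOF, as Fads1 and Fads2 were, at 3633 and 3987 in LOF against 442 and 669 in Krt14 6w, a log2 change of 2.81 ± 0.30 (adjusted p = 7.43e-05).

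Oxidation genes were represented by Acoxl and Cpt1a. Acoxl (chr2:127838876-128123873, plus strand) had 241 and 343 normalized counts in LOF, 260 and 279 in GOF, 158 and 120 in Krt14 8w, 2155 and 2534 in Inv and 15 and 16 in Krt14 6w. The Inv libraries stood above all others and the Krt14 6w libraries below all others, close to the floor. Its log2 change was 4.13 ± 0.22 in LOF (adjusted p = 1.94e-06), -3.11 ± 0.22 in GOF against Inv (adjusted p = 1.57e-05), -4.08 ± 0.22 in Krt14 8w against Inv (adjusted p = 2.68e-06) and 3.07 ± 0.22 between times (adjusted p = 6.58e-05). Cpt1a, which admits fatty acids to mitochondria, stayed at 1845 to 3482 and was called in no comparison. Of 23 further genes of fatty acid oxidation, 11 rose and 2 fell in LOF, beside 19.5% and 11.4% of all genes tested. Against Inv, 14 fell in GOF, beside 8.4%, and 1 rose and 17 fell in Krt14 8w, beside 8.18% and 11.4%. The peroxisomal genes Scp2 and Acox3 rose in LOF by 0.88 ± 0.10 (adjusted p = 9.85e-05) and 1.31 ± 0.13 (adjusted p = 4.86e-05). Scp2 fell in GOF against Inv by 1.39 (adjusted p = 1.42e-05), whereas Acox3 had 3124 and 3016 in GOF against 3143 and 2855 in Inv. Acadl, a mitochondrial dehydrogenase of long chains, fell in LOF by 1.29 (adjusted p = 0.000239).

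Mgst1, Hsd3b6 and Mc5r are known from sebaceous glands: Mgst1 is a microsomal glutathione transferase, Hsd3b6 an enzyme of steroid synthesis and Mc5r the melanocortin receptor of the gland. Mgst1 had 1281 and 1935 normalized counts in LOF, 1732 and 2845 in GOF, 1021 and 1005 in Krt14 8w, 7122 and 7321 in Inv and 280 and 290 in Krt14 6w. Hsd3b6 had 67 and 84 normalized counts in LOF, 34 and 34 in GOF, 44 and 29 in Krt14 8w, 701 and 694 in Inv and 3 and 6 in Krt14 6w. Mc5r had 147 and 167 normalized counts in LOF, 176 and 208 in GOF, 132 and 85 in Krt14 8w, 776 and 831 in Inv and 43 and 19 in Krt14 6w. All 3 were highest in both Inv libraries and lowest in both Krt14 6w libraries. Mgst1 rose in LOF by 2.46 ± 0.22 (adjusted p = 2.61e-05) and fell in GOF against Inv by 1.70 (adjusted p = 0.000719). Hsd3b6 fell in GOF against Inv by 4.32, with a standard error of 0.37 (adjusted p = 4.99e-05), and in Krt14 6w it was under the floor, so that for LOF (adjusted p = 4.01e-05) values alone are given. Of its stretches of 50 bases, 15.6% also occur in related genes. Mc5r rose in LOF by 2.41 ± 0.34 (adjusted p = 0.000457) and fell in GOF against Inv by 2.06 (adjusted p = 0.0031).

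Sebaceous gland genes outside the list fell into separate patterns. Of 10 tested, 3 rose and 3 fell in LOF, beside 19.5% and 11.4% of all genes tested, and 4 fell in GOF against Inv, beside 8.4%. In Krt14 8w against Inv 3 were higher and 5 lower, beside 8.18% and 11.4%, and 6 rose between times, beside 4.02%. The lipid enzymes Fa2h and Elovl3 were highest in Inv and lowest in Krt14 6w, and the other lipid genes of this list are not described. Fa2h, a fatty acid hydroxylase, had 1338 and 2129 normalized counts in LOF, 2443 and 2819 in GOF, 1805 and 1400 in Krt14 8w, 15247 and 14767 in Inv and 211 and 127 in Krt14 6w. Elovl3, an elongase of the gland, had 216 and 334 normalized counts in LOF, 433 and 401 in GOF, 484 and 470 in Krt14 8w, 3409 and 3451 in Inv and 70 and 62 in Krt14 6w. Krt79, a keratin of the gland duct and upper follicle, was highest in Krt14 8w and lowest in GOF, with 7275 and 5049 normalized counts in LOF, 2924 and 3224 in GOF, 32603 and 29132 in Krt14 8w, 12521 and 11972 in Inv and 21728 and 18152 in Krt14 6w. It fell in LOF by 1.71 (adjusted p = 2.64e-05) and in GOF against Inv by 2.00 (adjusted p = 2.56e-05). It was higher in Krt14 8w than in Inv by 1.33 ± 0.15 (adjusted p = 0.000167) and rose between times by 0.63 ± 0.15 (adjusted p = 0.0424). Lrig1, a stem cell marker of the upper follicle, was highest in Krt14 8w, at 8757 and 8589, and was called neither in LOF (0.14) nor in GOF against Inv (0.02).

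**Figure D5:**
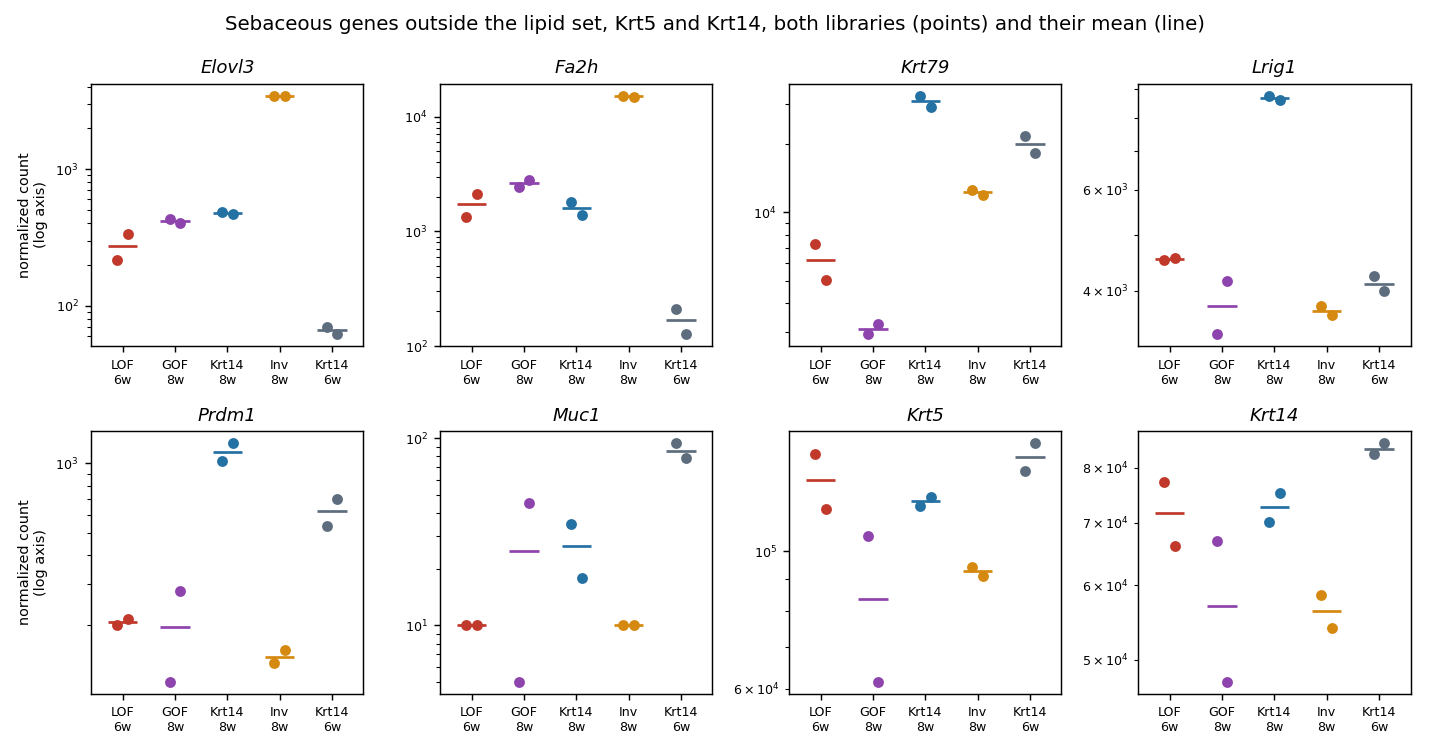
Normalized counts on a log axis for 6 sebaceous gland genes outside the list and for Krt5 and Krt14, with both libraries of each group as points and their mean as a line, from left to right LOF 6w, GOF 8w, Krt14 8w, Inv 8w and Krt14 6w. Elovl3 and Fa2h are highest in Inv and lowest in Krt14 6w, whereas Krt79, Lrig1 and Prdm1 are highest in Krt14 8w.

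Some markers of other cell types were also called in these comparisons. Of all genes tested, 19.5% were called higher and 11.4% lower in LOF, and 6.87% higher in GOF against Inv. In Krt14 8w against Inv 8.18% were higher and 11.4% lower, and 4.02% rose between times. In GOF against Krt14 8w 15.2% were higher and 12.5% lower. The marker counts below stand beside these shares, and the fibroblast count in GOF against Krt14 8w lay near its share. Of the 8 adipocyte markers 3 passed the filter, and the list summed to 106 and 96 normalized counts in LOF, 149 and 173 in GOF, 113 and 163 in Krt14 8w, 371 and 326 in Inv and 76 in each Krt14 6w library. Of the 3 tested adipocyte markers, 1 rose in LOF and 1 fell in GOF against Inv, beside 8.4% of all genes tested. In Krt14 8w against Inv 2 were lower, and 1 rose between times. The defining markers Adipoq and Lep were at 0 to 3 in all 10 libraries, under the floor, and the adipocyte-enriched Adig had 228 and 217 in Inv against 3 to 50 elsewhere. Melanocyte markers, 5 of 6 of them higher in LOF than in Krt14 6w, summed to 3000 and 2857 in LOF, 1939 and 1726 in GOF, 1326 and 1483 in Krt14 8w, 2247 and 2378 in Inv and 920 and 874 in Krt14 6w. Of these 6 markers, 3 were lower in Krt14 8w than in Inv, 3 rose between times and 2 were higher in GOF than in Krt14 8w. Fibroblast markers summed to 18817 and 19188 in LOF, 37656 and 14803 in GOF, 2441 and 1805 in Krt14 8w, 17944 and 19983 in Inv and 2673 and 1300 in Krt14 6w. Of these 6 markers, 2 rose in LOF, 2 were lower in Krt14 8w than in Inv and 1 was higher in GOF than in Krt14 8w. Nearly all of the sum in LOF and most of it in Krt14 6w was Dcn, at 17993 and 18053 in LOF against 2205 and 1163 in Krt14 6w, while Pdgfra was at 0 to 26 in every library. Immune markers summed to 70 to 161 everywhere, with Adgre1 at 5 or less, and of the 5 tested 1 rose and 1 fell in LOF. Of the 8 keratinocyte markers, 2 rose and 2 fell in LOF, 1 rose in GOF against Inv, 5 were higher in Krt14 8w than in Inv, 2 rose between times and 3 were lower in GOF than in Krt14 8w. Of the 5 endothelial markers, 1 fell in LOF, 1 was lower in Krt14 8w than in Inv and 2 were higher in GOF than in Krt14 8w. The part of adipocytes, melanocytes, fibroblasts, immune cells, endothelial cells and keratinocytes in the changes of lipid genes was not tested.

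Replicates of GOF were the least alike for these genes. Among genes with a group mean of at least 50, the higher replicate was above the lower by a median factor of 1.15 in LOF, 1.35 in GOF, 1.11 in Krt14 8w, 1.06 in Inv and 1.13 in Krt14 6w. The factor exceeded 1.5 for 13 of 39 genes in GOF, led by Lpin1, Fads2 and Scd2, and for 1 of 41 in Inv, Plin4. 

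Of 12 tested further glycerolipid and droplet genes, 2 rose and 1 fell in LOF and 3 fell in GOF against Inv. The shares of all genes tested, which serve for the SREBP and LXR and the lipolysis lists too, were 19.5% higher and 11.4% lower in LOF and 6.87% higher and 8.4% lower in GOF against Inv, so the glycerolipid counts in LOF lay near them. Of 13 genes of SREBP and LXR regulation, 5 rose and 1 fell in LOF, and 3 rose and 1 fell in GOF against Inv. Abcg1, a cholesterol exporter, rose with both changes of Survivin, by 1.83 ± 0.29 in LOF (adjusted p = 0.00088) and 1.64 ± 0.29 in GOF (adjusted p = 0.0042), whereas Insig1, which holds back SREBP processing, fell in GOF against Inv by 1.84 (adjusted p = 0.000519). Of 6 tested genes of lipolysis, 2 rose and 2 fell in LOF and 1 fell in GOF against Inv. Mgll, a lipase of monoglycerides, had 999 and 1520 normalized counts in LOF, 1530 and 1654 in GOF, 1541 and 1191 in Krt14 8w, 10500 and 9506 in Inv and 239 and 241 in Krt14 6w. Pnpla3, a lipid hydrolase, fell in LOF by 2.46 (adjusted p = 2.77e-05).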

How the data were processed

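Bulk RNA of FACS-sorted SmoM2-YFP epidermal cells was profiled in 10 libraries, placed in 5 groups of 2 from the genotype and weeks in their titles. Per the labels' protocols, libraries were made with Ovation Solo from column-purified RNA. The submitters' processing notes name STAR, HTSeq and the builds GRCm38 and mm10. Versions, annotation, strand setting and the formula of normalization were not given in the sources used here, so reads of overlapping antisense genes cannot be told apart. The authors deposited normalized counts, treated here as a score and not as raw counts: columns sum to 20011195 to 20014054, and 99.32% to 99.93% of values below 20000 are whole reads multiplied by a step of their own library and rounded up. Floors cover counting error only, since reads copied by PCR, with no molecular identifiers, cannot be taken as independent molecules. As the values are no raw counts, limma replaced count models as the test.

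The log2 of each value plus 1 went into 1 model over 5 groups, using lmFit and trended eBayes of limma 3.58.1 (R 4.3.3). Genes with at least 10 in at least 2 libraries were tested, two-sided, with Benjamini-Hochberg adjustment over all 21995. The fit had 5 residual and 5.91 prior degrees of freedom. With 2 libraries against 2, an exact permutation test cannot go below a two-sided p of 0.333. The members and all gene lists were chosen with earlier results of these data known. Genes shown with all 10 values are those called with a log2 change of at least 1 in at least 1 of 5 comparisons and a mean of at least 50. Per further list, up to 3 called genes of smallest p were eligible to be named, and Lrig1, Pdgfra, Adgre1, Kdr, Cdh5, Emcn, Adipoq and Lep are named as markers. Levels per kilobase use the exon union of GENCODE vM21, and promoter windows are from RefSeq on GRCm38.p6. Figures were drawn with matplotlib 3.10.9. In 24 alternatives the pseudocount, filter, scaling, model, threshold, a replicate block, log2 Xist as a covariate, and each library left out in turn were tried. The values of 1 gene of a further list are not reported here, though it is in that list's counts.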

Additional observations from a re-analysis of the deposited data

How the results depend on the processing

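Of 156 calls of lipid genes in the 5 comparisons and the difference, 69 were kept under every alternative other than the stricter thresholds. With log2 Xist as a covariate, whose slope comes from the spread within groups, 6 genes were higher in LOF against Krt14 6w, 6 lower and 0 higher in GOF against Inv, and 0 higher and 1 lower in GOF against Krt14 8w. Over all genes tested that model called 591, 26 and 14, and 87 and 115, in the same order. Log2 changes that turned sign under it were -0.17 for Scd1, -2.39 for Lpin1 and -0.64 for Pparg in LOF, 0.59 for Awat2 and 0.29 for Agpat2 in GOF against Inv, and, in GOF against Krt14 8w, 0.62 for Acaca, -0.67 for Scd1, 1.64 for Scd2, 0.48 for Far1, 1.10 for Awat2, -2.03 for Lpin1, -1.36 for Acsl4, -1.08 for Pparg and -0.68 for Mgst1. The cause was not tested.

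A fit to only the groups compared gave 4 genes lower in LOF, 0 higher in GOF against Inv, 4 higher in Krt14 8w against Inv, 1 lower between times, and 8 higher and 3 lower in GOF against Krt14 8w, with fewer libraries behind its spread. The count higher in GOF against Inv was 2 with a pseudocount of 5, a filter at 50 or median-of-ratios scaling, and 0 with no filter or at an adjusted p under 0.01. The count higher in Krt14 8w against Inv was 2 with quantile normalization, 3 with array weights and 0 when a log2 change of 1 was asked for. Between times, 12 genes were higher with no filter and 12 at an adjusted p under 0.01. In GOF against Krt14 8w, 7 were higher and 3 lower at an adjusted p under 0.01, and 7 and 3 with a log2 change of at least 1. Birc5 in LOF was -1.34 with limma-voom on recovered reads, at an adjusted p of 0.0507.

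Leaving out 1 library gave 19 to 29 genes higher and 2 to 5 lower in LOF, 0 to 3 higher and 18 to 28 lower in GOF against Inv, 1 to 4 higher and 23 to 31 lower in Krt14 8w against Inv, 8 to 24 higher and 0 lower between times, 6 to 15 higher and 3 to 9 lower in GOF against Krt14 8w, and 28 to 38 for the difference. Birc5 ranged from -1.444 to -1.245 in LOF and from 4.854 to 6.025 in GOF. With 1 library in a group, that library is assumed to vary like the other groups.

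With a replicate block, 155 of the 156 calls held and Fasn in LOF did not, at an adjusted p of 0.0501, and the counts were 23 higher in LOF and 24 lower in GOF against Inv. Deviations of same-numbered libraries correlated at -0.054 to 0.041, so the libraries share only a number. With 2 libraries per group and 7693179 to 8870759 reads each, genes near the floor, such as Awat1, Soat2 and Plin5, gave little precision.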
